A study of Mus musculus with 38 samples.

Results

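Homer1, Homer2 and Homer3 encode the Homer scaffold proteins of the postsynaptic density, and their ribosome footprints were followed here through all 14 groups of a proximity labeling ribosome profiling (PL-Ribo-seq) experiment on mouse cortical neurons. The members were taken by name. They are 3 of the 22401 genes in the count tables and have 21 of the 66664 coding transcripts with counts, of which 11 belong to Homer1, 5 to Homer2 and 5 to Homer3. For comparisons of genes, the coding sequence (CDS) counts of the longest transcript of each gene, by total length, were used, and for Homer1 each transcript, each CDS segment and each part of the 5′ untranslated region (leader) was also taken apart.

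Long Homer proteins carry an N-terminal EVH1 domain, which binds proline-rich motifs in group I metabotropic glutamate receptors, Shank scaffolds and intracellular calcium release channels, and a C-terminal coiled coil through which they form multimers that tie these partners together. Homer1 is also an immediate early gene: strong synaptic activity induces short forms, Homer1a and ania-3, which keep the EVH1 domain, lack the coiled coil and so compete with the long forms for the same partners. Homer2 and Homer3 are long scaffolds, and Homer3 is best known from cerebellar Purkinje cells.

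The 38 libraries are of primary cortical neurons from embryonic CD-1 mice carrying an inducible lentiviral biotin ligase. Per the methods, 4 dishes were pooled per sample, a part went to proteomics, and an input and its pulldown came from the same pool. TurboID-PSD95 fuses the ligase to PSD95, a postsynaptic scaffold, with untranslated regions that bring its mRNA to dendrites, and Pan-TurboID has no localization signal. Per the labels, cells were given biotin for 30 min (for DHPG the methods give a shorter time) and cycloheximide for 2 min, and footprints were sequenced from all monosomes (inputs) and from those held by streptavidin (pulldowns). In the KCl experiment, resting neurons were compared with neurons silenced for 2 h with tetrodotoxin and DL-AP5, depolarized with 55 mM KCl for 1 h and rested for 30 min, each with both ligases, as inputs and as pulldowns, which gave 8 groups with 3 replicates each. A further 3 inputs and 3 pulldowns came from TurboID-PSD95 neurons silenced for 2 h and exposed for 10 min to 100 µM DHPG, which activates group I metabotropic receptors. Per the labels they then recovered for 30 min (a shorter time in the methods). In the knockdown experiment, TurboID-PSD95 neurons received 20 nM siRNA against the initiation factor eIF4G2 for 72 h and were left at rest or depolarized as above, with 2 inputs and 2 pulldowns each. DHPG and knockdown libraries were set against TurboID-PSD95 libraries of the KCl experiment, so treatment and experiment cannot be told apart in those comparisons, which also share their control libraries with the KCl comparisons. A non-targeting siRNA control was not analysed here. Resting libraries have no silencing or recovery on their labels, so those steps cannot be told apart from KCl or DHPG.

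Libraries held 5906281 to 35643247 counted reads, of which 2048604 to 14646402 lay in the CDS of the longest transcripts. This CDS share was 12.5%, 15.0% and 16.6% in replicate 1 of the depolarized Pan-TurboID inputs, Pan-TurboID pulldowns and TurboID-PSD95 pulldowns, and 19.6% to 49.2% in all other libraries. Summed CPM (counts scaled to the size of each library) of 8 neuronal markers were 5198 to 10963 (median 7409), those of 6 astrocyte markers 81.5 to 838 (median 421), those of 8 oligodendrocyte lineage markers 36.3 to 537 (median 174) and those of 6 microglial markers 0 to 18.9 (median 2.70). No marker was at 0 in all libraries. The oligodendrocyte lineage sum was 233 to 537 CPM in resting and 155 to 382 CPM in depolarized inputs of the KCl experiment, and its part in the results was not tested. Eif4g2, the knockdown target, was at 269 to 319 CPM in knockdown inputs against 445 to 769 CPM in the other inputs, with no overlap. Of 17 immediate early genes, 14 rose in KCl inputs (6.32% of all genes were higher; median log2 fold change 2.58, against -0.0077 over all genes), among them Arc, a cytoskeletal protein of active synapses, at 3.48 ± 0.20 (SE). In bulk cultures, fewer neurons and fewer footprints per neuron cannot be told apart, and p-values measure the spread between libraries that the labels number as replicates.

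The annotated Homer1 transcripts differ at both ends. Where transcripts start in these cells was not measured. After exon 5 the short and long forms differ, and these junctions are shown because the counts that tell the forms apart lie to their right. Below, 12 bases of exon 5 are in lower case and the first 15 bases after it in capitals, from the reference genome (GRCm38.p6, mm10, chromosome 13, plus strand), and the capitals start at 93356080 (Homer1a), 93366278 and 93366243 (ania-3 forms), 93386345 and 93387524 (long forms).
Homer1a, read on into the intron: atttccacatagGTACACATTCAATTC
ania-3 form Homer1-206: atttccacatagACAGCCAACTTTCTT
ania-3 form Homer1-205: atttccacatagTTCTTCAAGATGGAT
long form Homer1-203 with the 36-nt exon: atttccacatagTGCTGGGGATCGAAC
long form Homer1-201: atttccacatagTTCAGCAATCAGCAA

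Exons 1 to 5 (527 nt of CDS, chr13:93305298-93356079) are common to both kinds of form. Exons 6 to 9 (538 nt, chr13:93387524-93402229) belong to the long forms. The short forms alone have the 34-nt CDS end of Homer1a (chr13:93356080-93356113), 175 nt of the ania-3 exon of Homer1-206 and 19 nt at the end of Homer1-207. These 228 nt were counted as short-form bases. The CDS bases that Homer1-205 has from 93366243 up to the start of that exon at 93366278 were left out. The longest transcript by total length is Homer1-204, which is Homer1a (CDS 561 nt), and the transcript with the most CDS counts is the long form Homer1-203 (CDS 1101 nt). At the last codons, with the stop codon in capitals, the forms end differently, Homer1a at chr13:93356087-93356113 and the long forms at chr13:93402203-93402229.
Homer1a end: ttcaattcagcaatcatgattaagTAA
long form end: ttggccaagctactggaatgcagcTAA

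At the 5′ end the leader next to the start codon (499 nt, chr13:93304799-93305297, here the proximal leader) is the whole leader of the long form Homer1-203. The 1042 nt upstream of it (chr13:93303757-93304798, here the distal leader) are annotated as 5′ untranslated region in short-form transcripts: part 3 (304 nt) in Homer1-204, Homer1-206 and Homer1-207, part 2 (393 nt) in Homer1-206 and Homer1-207, and part 1 (345 nt) in Homer1-207. The GC content was 71.8% in the distal and 45.5% in the proximal leader. ATG triplets were searched on the plus strand because upstream reading frames are one of the themes of the study, and each is shown with 12 bases on either side and the ATG in capitals.
distal leader, part 1, ATG at 93303778: tctgcggggaggATGgagacacagcgc
distal leader, part 2, ATG at 93304264: gcagccccgggaATGtgaggcggcgcg
distal leader, part 3, ATG at 93304603: gccagcctggaaATGgctccgctgctg
distal leader, part 3, ATG at 93304722: ggacagattccaATGtggtgtgccgtg
proximal leader, ATG at 93304971: gacgtgagcgaaATGaccagcgaactc
proximal leader, ATG at 93305096: ttcaaattccaaATGtttgaacatttt
Homer1 start codon, chr13:93305283-93305302: ttttcattgggcaaaATGgg

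All 6 upstream ATG triplets meet an in-frame stop within the leader, after 34, 1, 29, 20, 11 and 19 codons in the order shown. The distal leader held 3.84 and the proximal leader 4.01 ATG per kb, against 8.59 per kb over the 20896 leaders of the longest transcripts, of which 55.2% held at least 1. A match is a description of these letters and not of a translated frame.

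The distal leader, the proximal leader, exons 1 to 5 and exons 6 to 9 of Homer1 were read apart, because the common exons cannot tell the forms apart. All levels below are CPM divided by the length of the stretch in kb (CPM per kb), with library sizes scaled by TMM, and replicates are given in the order of their numbers. Over all libraries together the distal leader, with 30957 counts, was the most densely covered of them, and the proximal leader, with 625 counts, the least. This did not hold in each group. Resting Pan-TurboID pulldowns averaged a log2 density of 5.36 on exons 6 to 9 against 4.93 on the distal leader, and resting TurboID-PSD95 pulldowns 5.02 against 4.95. Resting TurboID-PSD95 inputs held 40.3, 126 and 85.1 CPM per kb on the distal leader and 5.92 to 8.37 on the proximal one.

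**Figure D1:**
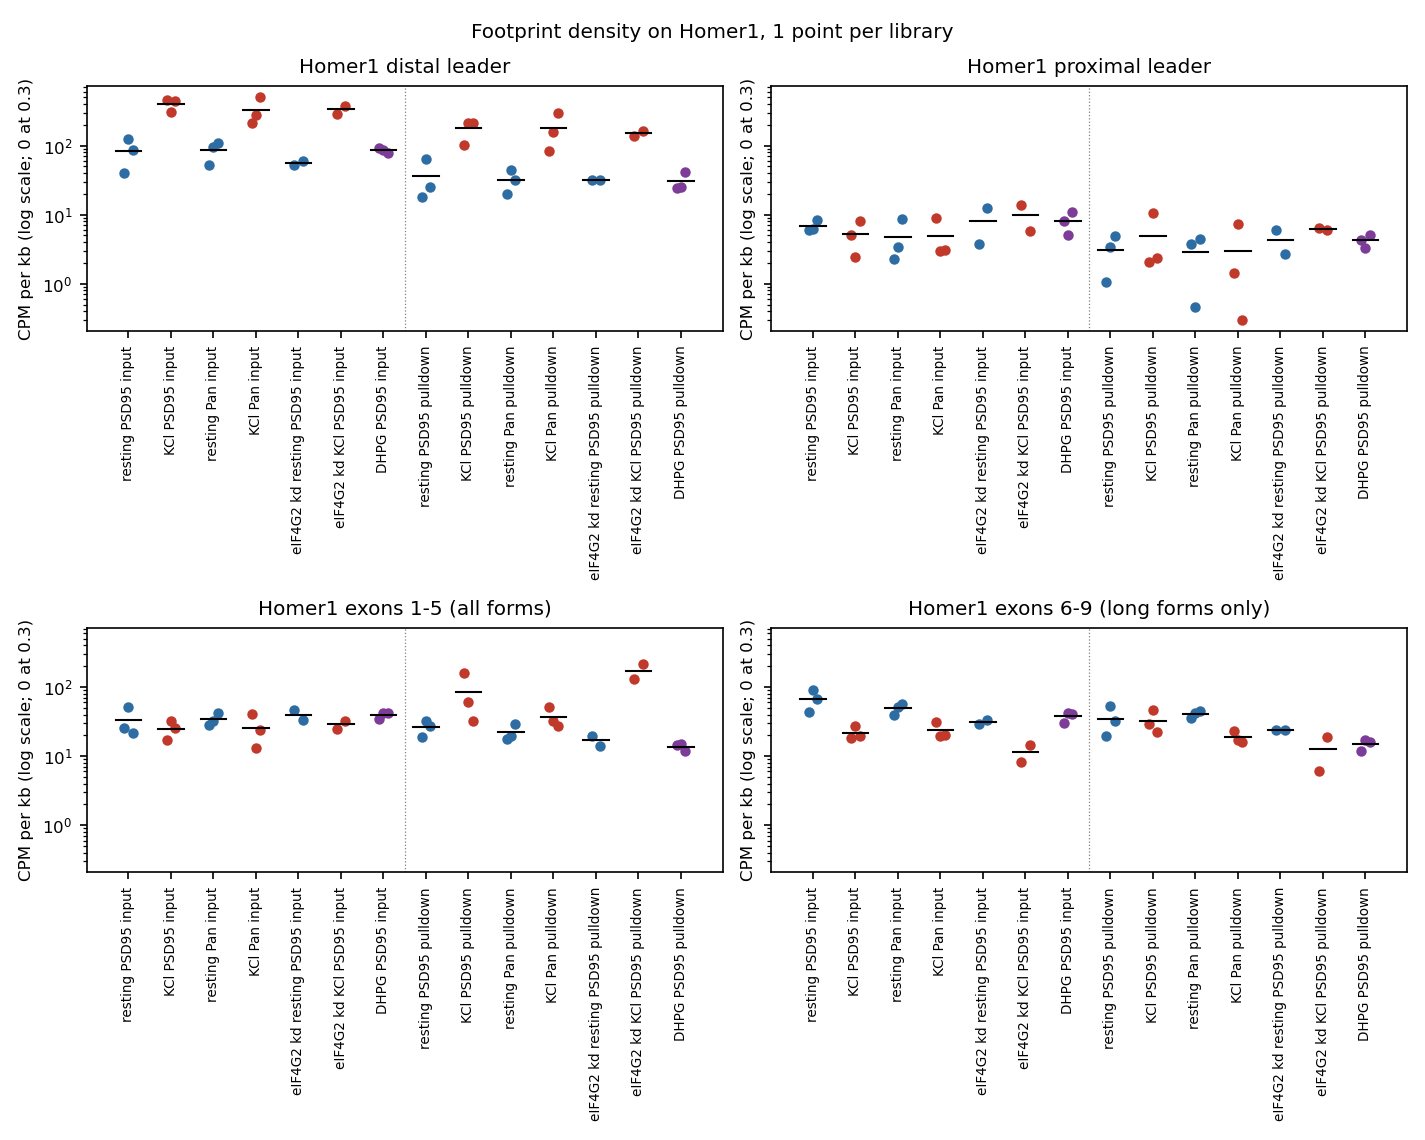
Footprint density of 4 Homer1 stretches in CPM per kb on a log scale (values of 0 drawn at 0.3), 1 point per library and a bar for each group mean, with resting groups in blue, KCl groups in red, DHPG groups in purple, and inputs left of the dotted line. Depolarized inputs of the KCl experiment lie above all of its resting inputs on the distal leader and below them on exons 6 to 9, while depolarized TurboID-PSD95 pulldowns with knockdown lie far above their inputs on exons 1 to 5.

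Long-form exons carried fewer footprints in depolarized inputs. On exons 6 to 9, resting TurboID-PSD95 inputs had 44.2, 92.0 and 67.6 CPM per kb and resting Pan-TurboID inputs 39.4, 52.2 and 57.3. Depolarized inputs had 18.3, 27.5 and 19.5 CPM per kb with TurboID-PSD95 and 31.1, 19.3 and 20.5 with Pan-TurboID. All 6 depolarized inputs were below all 6 resting inputs. The log2 difference was -1.33, and the two-sided exact permutation test gave p = 0.00216, the smallest that 6 against 6 libraries allow (adjusted p = 0.0195 over 9 comparisons of this density, a quantity added with its values known). The 6 inputs of each condition come from 3 replicates with both ligases, which this test takes as independent. With values swapped only within replicate number and ligase, Homer1 exons 6 to 9 gave an exact p of 0.03125 (adjusted p = 0.281), the smallest that 6 pairs allow, so no density can pass over 9 comparisons in that test, nor can it without any 1 replicate number (4 against 4 inputs).

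In the fit over all transcripts, the long form Homer1-203 fell in KCl inputs with a log2 fold change of -0.99 ± 0.26 (SE; adjusted p = 0.0115), as did the long forms Homer1-201 at -0.98 and Homer1-202 at -0.98. These transcripts share most of their CDS. In the same fit Homer1-210 and Homer1-211 were lower at -1.39 and -1.40 (adjusted p = 0.000374 and 0.000303) and Homer1-209 at -0.95 (adjusted p = 0.0377). The short form Homer1-204 and Homer1-205 to Homer1-208 did not pass. Homer1 transcripts share exons and are not independent of each other. Across all 44325 transcripts 13.3% were called in either direction and 7.84% were lower. The call of Homer1-203 was lost without replicate 2 (-0.75, adjusted p = 0.201) or 3 (-0.91, adjusted p = 0.17). Homer1-203 had 34.4, 70.6 and 43.5 CPM per kb in resting TurboID-PSD95 inputs and 17.1, 29.0 and 22.1 in depolarized ones, which do not overlap. Taken one at a time among 106080 CDS segments, of which 2.76% were called, none of the 4 long-form exons passed, with log2 fold changes of -1.57, -1.75, -0.88 and -1.24 and adjusted p from 0.0546 to 0.545.

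On exons 1 to 5, which both kinds of form share, depolarized and resting inputs overlapped. Resting TurboID-PSD95 inputs had 25.3, 51.9 and 21.9 CPM per kb there and depolarized ones 17.1, 32.6 and 25.2. The short-form Homer1-204, which stands for the gene in the comparison of genes, changed by a log2 fold change of -0.46 ± 0.33 (adjusted p = 0.386), and 15.4% of 13019 genes were called in that comparison. The ratio of long-form to common exons differed with KCl by -0.90 on the log2 scale (exact permutation p = 0.00649, adjusted p = 0.0584), which misses the threshold, and with exons 1 to 3 as the common part it differed by -1.06 (adjusted p = 0.156, exact permutation test).

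The same ratio of Homer1 exons 6 to 9 to exons 1 to 5 was lower in depolarized than in resting pulldowns, by a log2 difference of -1.43 with TurboID-PSD95 and -1.86 with Pan-TurboID, both without overlap (exact permutation p = 0.1 for both, the smallest possible; adjusted p = 0.18). With knockdown it differed with KCl by -1.04 in inputs and -4.42 in pulldowns, without overlap (exact permutation p = 0.333, the smallest that 2 against 2 allow). DHPG inputs were below resting inputs, at a log2 difference of -1.15, also without overlap (exact permutation p = 0.1, adjusted p = 0.18), and DHPG pulldowns overlapped resting ones at -0.21. TurboID-PSD95 pulldowns differed from their inputs by -0.76 at rest, without overlap, and -0.94 after KCl, with overlap. None of the 9 comparisons of this ratio passed after adjustment. With exons 1 to 3 as the common part, the KCl differences were -0.31 in TurboID-PSD95 and -0.82 in Pan-TurboID pulldowns, both with overlap. TurboID-PSD95 pulldowns then differed from their inputs by 0.088 at rest and 1.13 after KCl, also with overlap. Knockdown inputs differed with KCl by -0.65, with overlap, and knockdown pulldowns by -3.36, without. DHPG inputs and pulldowns differed from rest by -1.24 and -0.96, without overlap.

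The distal leader of Homer1 moved the other way. Resting TurboID-PSD95 inputs had 83.9 ± 43.1 (SD, n = 3) CPM per kb on average and depolarized ones 452, 310.3 and 441, or 401 ± 79.0 (SD, n = 3). Resting Pan-TurboID inputs had 52.1, 96.0 and 108 CPM per kb and depolarized ones 214, 276 and 502. Each of the 6 depolarized inputs was above all 6 resting inputs. The log2 difference was 2.16 (exact permutation p = 0.00216, adjusted p = 0.0195 over 9 comparisons, also added with values known; with swaps within replicate number and ligase, exact p = 0.03125 and adjusted p = 0.281).

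All 3 parts of the distal leader rose in KCl inputs in a fit over 21132 leader parts of all genes, split at annotated transcript starts, of which 0.383% were called. The first part, found in Homer1-207 alone, rose by 2.65 ± 0.40 on the log2 scale (SE; adjusted p = 2.5e-06), the second by 1.91 ± 0.37 (adjusted p = 0.000791) and the third, which Homer1a also has, by 1.55 ± 0.37 (adjusted p = 0.0214). They ranked 12, 27 and 62 by p among all parts. The median part changed by 0.22 on the log2 scale, 0.13 among parts with a GC content of 70% or more. Without replicate 3, all 3 parts lost the call at log2 fold changes of 2.22, 1.79 and 1.71 (adjusted p = 0.19, 0.932 and 1), and the third part also without replicate 2 (adjusted p = 0.0509).

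The proximal leader stayed low, at group means of 2.85 to 9.75 CPM per kb and at most 13.7 in any library. Its log2 difference with KCl in inputs was -0.20 (exact permutation p = 0.662).

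Pulldowns showed the distal leader rise too, at a lower level. TurboID-PSD95 pulldowns had 17.9, 64.2 and 25.2 CPM per kb at rest and 103, 214 and 213 after KCl, and Pan-TurboID pulldowns 19.7, 44.7 and 31.7 and 83.3, 155 and 296. The depolarized pulldowns were above all resting pulldowns of the same ligase. In TurboID-PSD95 pulldowns the first part rose by 2.57 ± 0.58 (adjusted p = 0.0121) and the third by 2.87 ± 0.57 (adjusted p = 0.00211), against 0.265% of parts called, while the second, at 1.97, had an adjusted p of 0.0789, and 2.00 with an adjusted p of 0.000138 with the replicate number as a block. The median part changed by 0.69 there and the 95th percentile of all parts was 2.70, so the Homer1 parts lie between the median and a little above that percentile. In Pan-TurboID pulldowns the first part rose by 3.17 ± 0.59 (adjusted p = 0.000523) and the second by 2.30 ± 0.53 (adjusted p = 0.0296), against 0.123% called, while the third had 1.97 (adjusted p = 0.204; with the block 1.89 and 0.00265). The median part changed by 0.30 in these pulldowns, with a 95th percentile of 1.68. Fitted as one 5′ untranslated region of Homer1-204, the leader rose by 1.43 ± 0.36 in inputs (adjusted p = 0.0361, 0.443% of 10158 called) and by 2.61 ± 0.55 in TurboID-PSD95 pulldowns (adjusted p = 0.00593, 0.285% called). These calls in pulldowns were lost without replicate 3 (adjusted p = 0.886 to 1), and those of the whole leader without replicate 2 as well. In inputs the whole Homer1 leader lost its call without any 1 of the 3 replicates (log2 fold changes 1.14, 1.67 and 1.61, adjusted p = 0.0604, 0.0868 and 1).

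**Figure D2:**
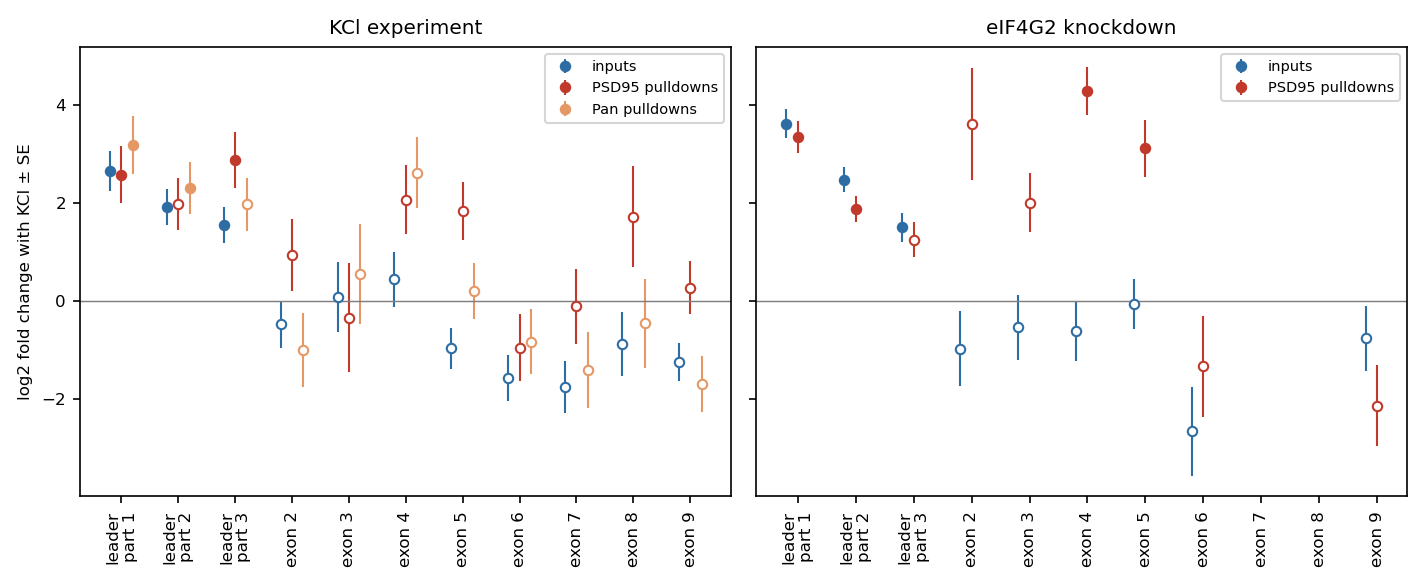
Log2 fold change with KCl along Homer1 from the 3 distal leader parts through exons 2 to 9, with SE bars, in inputs and pulldowns of the KCl experiment (left) and the knockdown experiment (right); filled points have an adjusted p below 0.05. The leader parts lie above 0 in both experiments, exon 4 is the highest exon in each kind of pulldown, filled together with exon 5 in the knockdown pulldowns, and exons 6 to 9 lie below 0 in inputs; exons 7 and 8 were not tested with knockdown and exon 1 held no counts.

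CDS bases that belong to the short forms alone held few footprints. The 228 nt of them counted here had 108 counts over the 38 libraries, 16 of which lay on the Homer1a end, with 0 to 14 counts in any library. TurboID-PSD95 inputs had 3, 0 and 0 counts at rest and 0, 0 and 7 after KCl, and the pulldowns 0, 0 and 4 at rest and 0, 9 and 9 after KCl. Pan-TurboID pulldowns had 0, 0 and 14 counts at rest and 1, 8 and 7 after KCl. In each of these pairs the ranges per kb overlap. With knockdown the mean log2 density on these bases was 3.06 at rest and 3.88 after KCl in pulldowns. Knockdown inputs had 0.79 and -0.52, without overlap with the pulldowns, a difference that was not tested. With KCl the density differed by 0.82 in knockdown pulldowns and -1.31 in knockdown inputs (exact permutation p = 0.667 and 0.333). A count of 0 on the Homer1a end allows up to 3 counts, or 37.8 CPM per kb in depolarized TurboID-PSD95 input replicate 1. Because reads are placed by their 5′ ends, ribosomes on the first bases of a short-form end can count in the exon before it. The limit covers counting error only. The density on the 228 nt differed with KCl by 0.49 on the log2 scale in inputs, 1.95 in TurboID-PSD95 pulldowns and 2.18 in Pan-TurboID pulldowns (exact permutation p = 0.511, 0.3 and 0.3). Its ratio to the density on exons 6 to 9 differed by 1.83, 2.00 and 3.32 (exact permutation p = 0.0584, 0.3 and 0.1, adjusted p = 0.45, 0.5 and 0.45 over 9 comparisons), without overlap in Pan-TurboID pulldowns alone of these 3. None passed, and at 0 to 14 counts a library these data set no close limit on a change of the short-form coding ends.

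In TurboID-PSD95 pulldowns, Homer1 counted on Homer1-204 rose with KCl. Resting pulldowns had 18.02, 30.5 and 26.00 CPM per kb and depolarized ones 149.7, 56.4 and 30.6. All 3 depolarized libraries were above the resting ones, replicate 3 by little and replicate 1 by most. The log2 fold change was 1.64 ± 0.47 (SE; adjusted p = 0.0341), where 6.6% of genes were called and 3.32% were higher. Without replicate 1, whose depolarized pulldown had 16.6% of its reads in CDS, it was 0.64 (adjusted p = 0.367), and it also lost the call without replicate 2 or 3 (adjusted p = 0.13 and 0.121), counted on the long form Homer1-203 (0.89, adjusted p = 0.152) and with a trend on CDS length removed (adjusted p = 0.134).

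Set against the mean of both inputs, as the study did to measure dendritic translation, Homer1 was higher in depolarized TurboID-PSD95 pulldowns by 1.69 ± 0.38 (SE; adjusted p = 0.00598), where 18.0% of genes were called and 11.2% were higher. At rest the difference was -0.41 ± 0.41 (adjusted p = 0.467, 31.1% called). The change between them was 2.10 ± 0.57, with an adjusted p of 1.00, and 0 of 13019 genes passed in that comparison by edgeR's quasi-likelihood test, with 343 at an unadjusted p under 0.05, 2 passing by the likelihood ratio test and 1 by DESeq2. Without replicate 1 or 3 the depolarized difference was 1.05 and 2.05 (adjusted p = 0.0597 and 0.12).

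Of the Homer1 CDS segments, exons 4 and 5 passed in the depolarized dendritic comparison. Exon 4 is 93 nt long (chr13:93349205-93349297). TurboID-PSD95 inputs had 10.3, 11.7 and 10.6 CPM per kb at rest and 46.0, 19.3 and 9.20 after KCl. The pulldowns had 27.2, 63.5 and 41.8 CPM per kb at rest and 285, 144 and 130.5 after KCl, so that every depolarized pulldown was above every resting pulldown and every input. Pan-TurboID pulldowns went from 14.9, 0 and 24.97 to 148, 85.6 and 42.7 CPM per kb, also without overlap, where the 0 allows up to 7.48 CPM per kb. Exon 4 held 903 counts in all, and among 106080 segments its rise in pulldowns did not pass with either ligase (2.06 ± 0.70, adjusted p = 0.19, and 2.62 ± 0.72, adjusted p = 0.128, with 0.341% and 0.24% called).

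Against inputs, Homer1 exon 4 was higher in depolarized TurboID-PSD95 pulldowns by 3.20 ± 0.60 (SE; adjusted p = 0.000546) and exon 5 by 2.32 ± 0.49 (adjusted p = 0.00174), with 11.1% of segments called and 9.1% higher. At rest exon 4 had 1.58 ± 0.62 (adjusted p = 0.0688; with the replicate block 1.69 and 0.0391). Exon 5, the last that both kinds of form share, had 44.6, 30.1 and 48.6 CPM per kb in resting and 364, 59.6 and 29.6 in depolarized TurboID-PSD95 pulldowns, so the difference rested on replicate 1, without which it was 0.67 against inputs (adjusted p = 0.463). Exon 4 lost its call against inputs without replicate 3 (2.90, adjusted p = 0.0671). Exons 6 to 9 gave 19.5, 52.6 and 32.5 CPM per kb in the resting and 29.3, 46.7 and 22.00 in the depolarized pulldowns, with a log2 difference of -0.045 (exact permutation p = 1; the smallest p for 3 against 3 is 0.1). Against TurboID-PSD95 inputs, exons 6 to 9 differed by -1.005 at rest and 0.54 after KCl (exact permutation p = 0.2 for both). The change of the dendritic comparison was 1.62 on exon 4, 2.79 on exon 5 and 0.62, 1.64, 2.59 and 1.51 on exons 6 to 9, and none passed (adjusted p = 1.00 each).

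Pan-TurboID pulldowns counted on Homer1-204 changed by 0.73 ± 0.46 with KCl (adjusted p = 0.423, 5.03% of genes called, 655 genes, and 984 with the replicate block) and differed from their inputs by -0.047 ± 0.33 (adjusted p = 0.928, 34.2% called). The difference between the ligases, TurboID-PSD95 beyond Pan-TurboID, was 0.69 ± 0.46 and did not pass (adjusted p = 1, 0.00768% called).

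**Figure D3:**
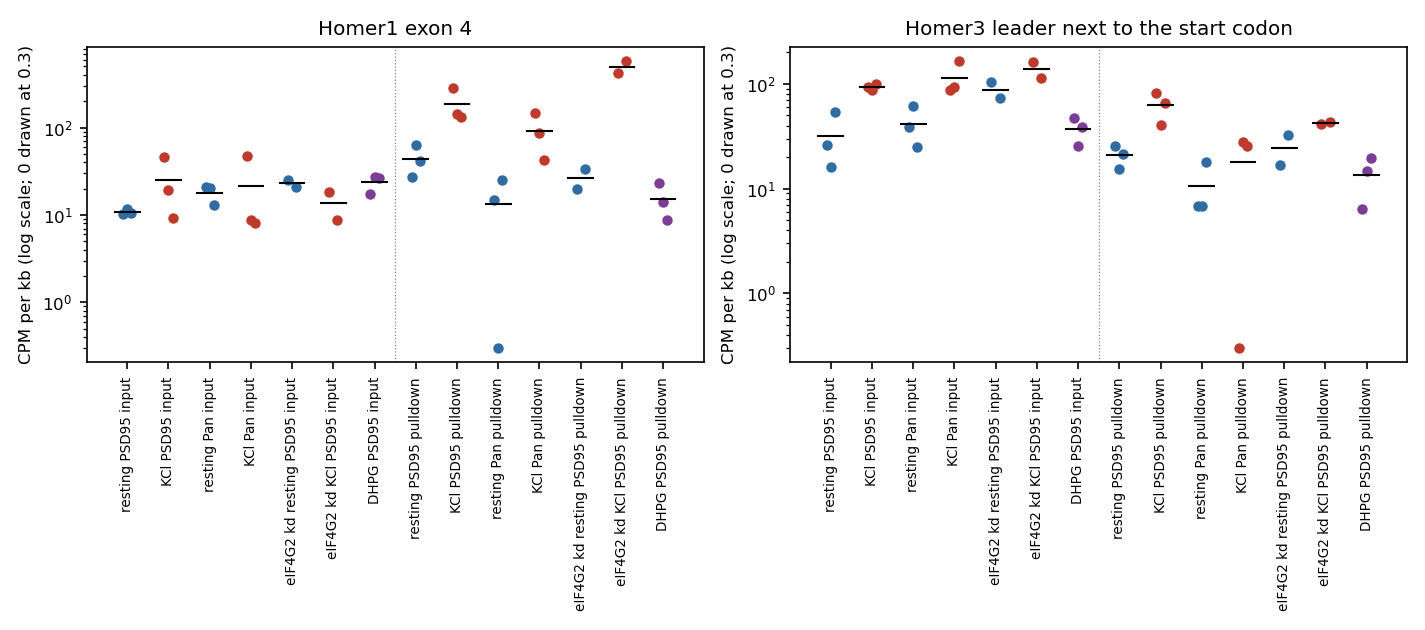
Footprint density on Homer1 exon 4 and on the Homer3 leader next to its start codon, in CPM per kb on a log scale, 1 point per library and a bar for each group mean, in all 14 groups with inputs left of the dotted line. Depolarized pulldowns lie highest on exon 4, up to 572 CPM per kb with knockdown, and depolarized inputs lie above resting inputs of the same experiment on the Homer3 leader.

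With eIF4G2 knocked down, Homer1 rose with KCl in the pulldowns. Homer1-204 had 18.4 and 13.4 CPM per kb in the resting and 122 and 202 in the depolarized pulldowns. Both depolarized pulldowns were above all other Homer1-204 values but that of 1 depolarized pulldown without knockdown. The log2 fold change was 3.27 ± 0.31 (SE; adjusted p = 1.49e-08), where 22.2% of 12239 genes were called and 10.2% were higher. The shared exons had 19.6 and 14.2 CPM per kb at rest and 130.1 and 215 after KCl, while exons 6 to 9 had 24.3 and 23.7 and 6.03 and 19.2.

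Exon 4 again carried the largest difference of the Homer1 segments tested, from 19.7 and 33.2 CPM per kb at rest to 423 and 572 after KCl in the knockdown pulldowns. Its log2 fold change was 4.27 ± 0.48 (SE; adjusted p = 9.33e-07, 4.16% of 81515 segments called and 1.65% higher), and that of exon 5 was 3.11 ± 0.58 (adjusted p = 0.00131; 1.92 and 0.086 without depolarized pulldown replicate 2). Exons 2 and 3, at 3.60 ± 1.14 and 2.00 ± 0.60, did not pass (adjusted p = 0.0714 and 0.055). The 2 depolarized knockdown pulldowns had 19.6% and 25.4% of their reads in CDS and 1 of the resting ones 20.0%, and the part of that in these results was not tested.

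Knockdown inputs changed with KCl on the distal leader and on the long form. The distal leader had 53.2 and 60.4 CPM per kb at rest and 290.1 and 376 after KCl, and its 3 parts rose by 3.61 ± 0.29, 2.47 ± 0.25 and 1.504 ± 0.29 on the log2 scale (adjusted p = 3.51e-08, 1.17e-06 and 0.00605, with 1.87% of 14190 parts called). The third part lost its call without any 1 of the 4 inputs (1.43 to 1.56, adjusted p = 0.0776 to 0.304). In knockdown pulldowns the first and second part rose as well, by 3.34 ± 0.33 and 1.88 ± 0.27 (adjusted p = 2.03e-06 and 0.0004, 0.479% called). The long form Homer1-203, used as the gene's transcript, fell in knockdown inputs at a log2 fold change of -0.88 ± 0.26 (adjusted p = 0.0153), and Homer1-204 differed by -0.44 ± 0.29 (adjusted p = 0.329, 19.3% of genes called). As a feature among all transcripts of Homer1 and other genes, Homer1-203 was at -0.88 (adjusted p = 0.0206, 16.2% called) and lost its call in these inputs without any of 3 of the 4 libraries (-0.98 to -0.62, adjusted p = 0.0565 to 0.301).

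Between knockdown and other inputs, Homer1 counted on Homer1-204 passed in no comparison. Knockdown and other TurboID-PSD95 inputs differed by 0.24 ± 0.47 at rest (adjusted p = 0.857, 3.9% of 13197 genes called) and by 0.22 ± 0.51 after KCl (adjusted p = 0.854, 5.32% called). The KCl response of inputs differed between knockdown and none by -0.021 ± 0.70 (adjusted p = 1, 0.00758% called), with an SE that leaves room for a difference of 1 log2 unit in either direction. On exons 6 to 9, knockdown inputs had 28.9 and 33.1 CPM per kb at rest and 8.19 and 14.5 after KCl, below every input of the KCl experiment in the same condition. Counted on the long form Homer1-203, the difference from TurboID-PSD95 inputs was -0.48 ± 0.40 at rest and -0.20 ± 0.44 after KCl and did not pass (adjusted p = 0.599 and 0.836). Averaged over rest and KCl, knockdown pulldowns exceeded their inputs by 0.67 ± 0.22 (adjusted p = 0.00985, 59.7% called and 29.1% higher), a call that leaving out any of 4 of the 8 libraries ended (adjusted p = 0.0531 to 0.129). This average joins differences of opposite sign. On Homer1-204 the knockdown inputs had 43.1 and 30.9 CPM per kb at rest and 23.6 and 30.8 after KCl, so both resting pulldowns lay below both resting inputs and both depolarized pulldowns above both depolarized inputs.

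In the DHPG libraries, Homer1 was lower in pulldowns than in inputs. DHPG inputs had 33.0, 39.0 and 39.6 CPM per kb on Homer1-204 and DHPG pulldowns 13.6, 13.97 and 11.2, with no overlap. Pulldowns differed from inputs by -1.56 ± 0.15 on the log2 scale (SE; adjusted p = 2.95e-08), in a comparison where 79.8% of 12273 genes were called and 39.3% were lower. Against resting TurboID-PSD95 libraries, the DHPG inputs differed by 0.22 ± 0.28 (adjusted p = 0.568, 32.8% called) and the pulldowns were lower by a log2 fold change of -0.98 ± 0.30 (adjusted p = 0.0137, 47.7% called and 26.0% lower), a call that was lost without replicate 3 (-0.87, adjusted p = 0.101) and with a CDS length trend removed (-0.63, adjusted p = 0.0942).

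On the distal leader of Homer1 DHPG inputs overlapped resting ones, at 93.1, 85.8 and 78.1 CPM per kb against 40.3, 126 and 85.1 at rest (log2 difference 0.17, exact permutation p = 0.8). None of its 3 parts was called in DHPG inputs or pulldowns, where 7.36% and 6.22% of parts were. Of the long-form exons, exon 7 was lower in DHPG inputs at a log2 fold change of -1.59 ± 0.41 (SE; adjusted p = 0.0106, 14.1% of segments called), and exons 6 and 9 were lower in DHPG pulldowns at -1.22 and -1.81 (adjusted p = 0.0323 and 0.00325, 25.7% called). The common exon 5 was lower in DHPG pulldowns too, at -1.07 (adjusted p = 0.0271, and 0.251 and 0.126 without replicate 1 and 3). Without replicate 3 the calls of exons 6 and 7 were lost (adjusted p = 0.116 and 0.188), and without replicate 2 as well. Exon 4, high in KCl pulldowns, had 23.1, 14.2 and 8.71 CPM per kb in DHPG pulldowns, below the resting pulldowns with a log2 fold change of -1.60 ± 0.54 (adjusted p = 0.0306, and 0.262 and 0.198 without replicate 2 and 3; with the replicate block -1.55 and 0.0526, no longer passing). Of the 17 immediate early genes, 13 were lower and 2 higher in these DHPG inputs than in resting inputs, Arc among the latter (16.5% and 16.3% of all genes; list median -1.63, all genes -0.022).

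**Figure D4:**
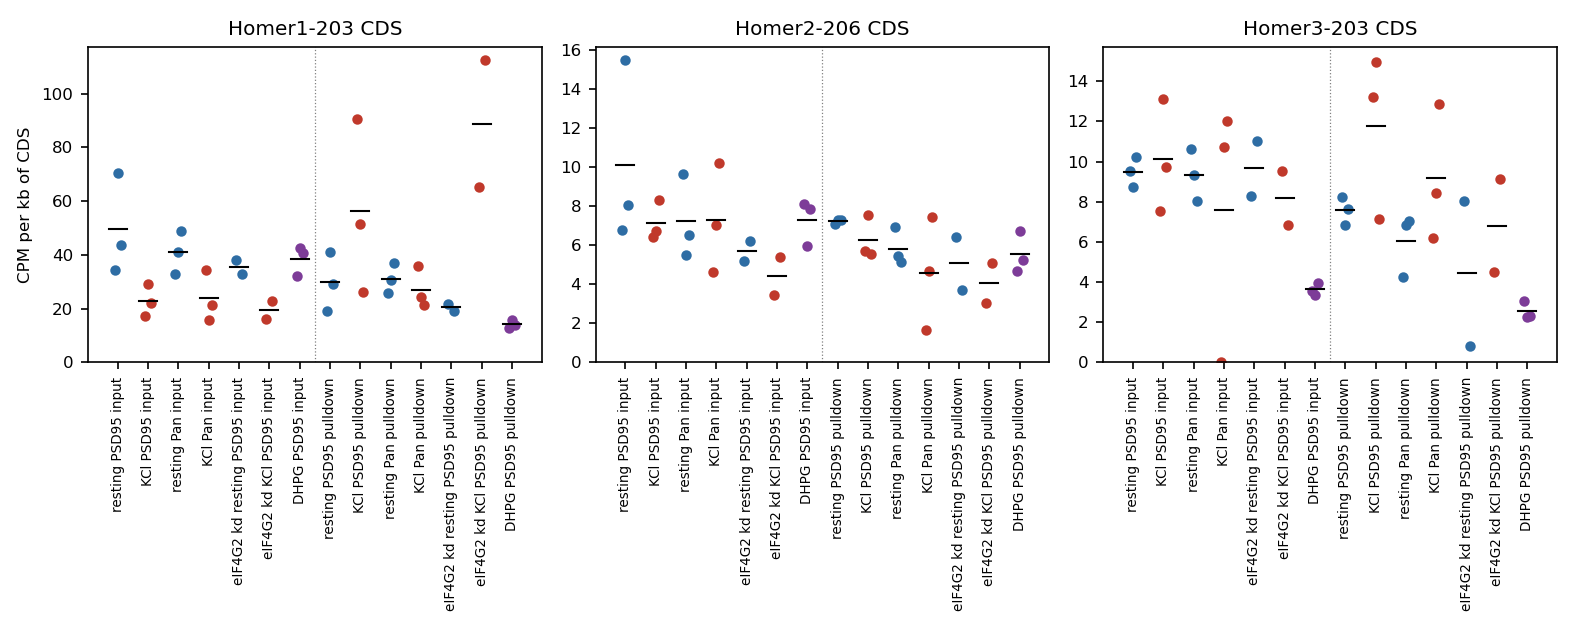
CDS footprint density of Homer1-203, Homer2-206 and Homer3-203, the transcript of each gene with the most counts, in CPM per kb on a linear scale, 1 point per library and a bar for each group mean, in all 14 groups. Homer1 lies above Homer2 and Homer3 in each group mean, and the 6 DHPG libraries lie low for Homer3.

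Per kb of CDS, Homer1 was the most covered of the 3 genes. Group means ran from 14.2 to 88.8 CPM per kb for Homer1-203, from 4.07 to 10.1 for Homer2-206 and from 2.55 to 11.8 for Homer3-203. In the order of the 14 group means, depolarized pulldowns with knockdown were first for Homer1-203, depolarized TurboID-PSD95 pulldowns without it second and DHPG pulldowns last. Neighbours in that order had overlapping ranges throughout, except for the last pair, depolarized knockdown inputs and DHPG pulldowns. For Homer1-204 the same 2 groups came first, at means of 162 and 78.9 CPM per kb, and no neighbours were apart.

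Homer2, a long scaffold close to Homer1 in exon structure (its exons 2 to 9 have the same lengths), was low and passed in none of the 17 comparisons. Its start codon lies at chr7:81706759-81706778 on the minus strand and that of Homer3 at chr8:70285287-70285313 on the plus strand, both shown with the ATG in capitals and the leader in lower case on its left.
Homer2 start codon: cgagcagcgccggagATGgg
Homer3 start codon: agcccaacctgaccaATGtccacagcc

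Homer2-206 had 6.77, 15.5 and 8.07 CPM per kb in resting and 6.43, 6.75 and 8.34 in depolarized TurboID-PSD95 inputs, and 7.12, 7.33 and 7.30 and 5.74, 7.58 and 5.56 in the pulldowns. All of these ranges overlap, as do those of all neighbours in the order of its 14 group means. In the fit over transcripts, Homer2-206 changed with KCl by -0.25 in inputs, -0.17 in TurboID-PSD95 and -0.29 in Pan-TurboID pulldowns, and none passed. In the comparison of genes, counted on Homer2-202, the log2 fold changes were -0.62 ± 0.50, -0.63 ± 0.73 and -0.67 ± 0.72 in that order (SE, adjusted p = 0.442, 0.667 and 0.684). The longest transcript, Homer2-202, lacks the first exons and held 943 counts over all libraries, which left SE of up to 0.86 on the log2 scale in the fit over transcripts. On Homer2-206, DHPG inputs had 8.13, 5.95 and 7.89 CPM per kb and DHPG pulldowns 4.72, 6.74 and 5.24. On Homer2-202 the inputs had 5.34, 4.54 and 5.09 and the pulldowns 5.10, 5.69 and 3.92 (pulldown over input -0.077 ± 0.24, adjusted p = 0.78). The gene Gm44570 overlaps its 3′ end on the other strand, and the use of strand in counting is not stated.

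Homer3 was lower in the DHPG libraries. DHPG inputs had 3.58, 3.38 and 3.97 CPM per kb on Homer3-203 and DHPG pulldowns 3.06, 2.25 and 2.33. Resting TurboID-PSD95 inputs had 9.54, 8.73 and 10.2 CPM per kb and pulldowns 8.25, 6.84 and 7.65. All 6 DHPG libraries were below all 6 resting ones, and DHPG pulldowns below DHPG inputs. The log2 fold change against rest was -1.41 ± 0.28 in inputs (SE; adjusted p = 0.00116; 16.5% of genes were lower) and -1.64 ± 0.29 in pulldowns (adjusted p = 0.000242), where DHPG and the experiment cannot be told apart.

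With KCl, Homer3 CDS counts passed in no comparison. Depolarized TurboID-PSD95 inputs had 7.53, 13.1 and 9.71 CPM per kb and pulldowns 13.2, 14.96 and 7.12, and 1 depolarized Pan-TurboID input had 0, which allows up to 1.37 CPM per kb. The log2 fold changes were -0.091 ± 0.37 in inputs, 0.63 ± 0.54 in TurboID-PSD95 pulldowns and 0.62 ± 0.53 in Pan-TurboID pulldowns (SE; adjusted p = 0.903, 0.543 and 0.579). The last exon of Homer3 overlaps Ddx49, a gene of the other strand.

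**Figure D5:**
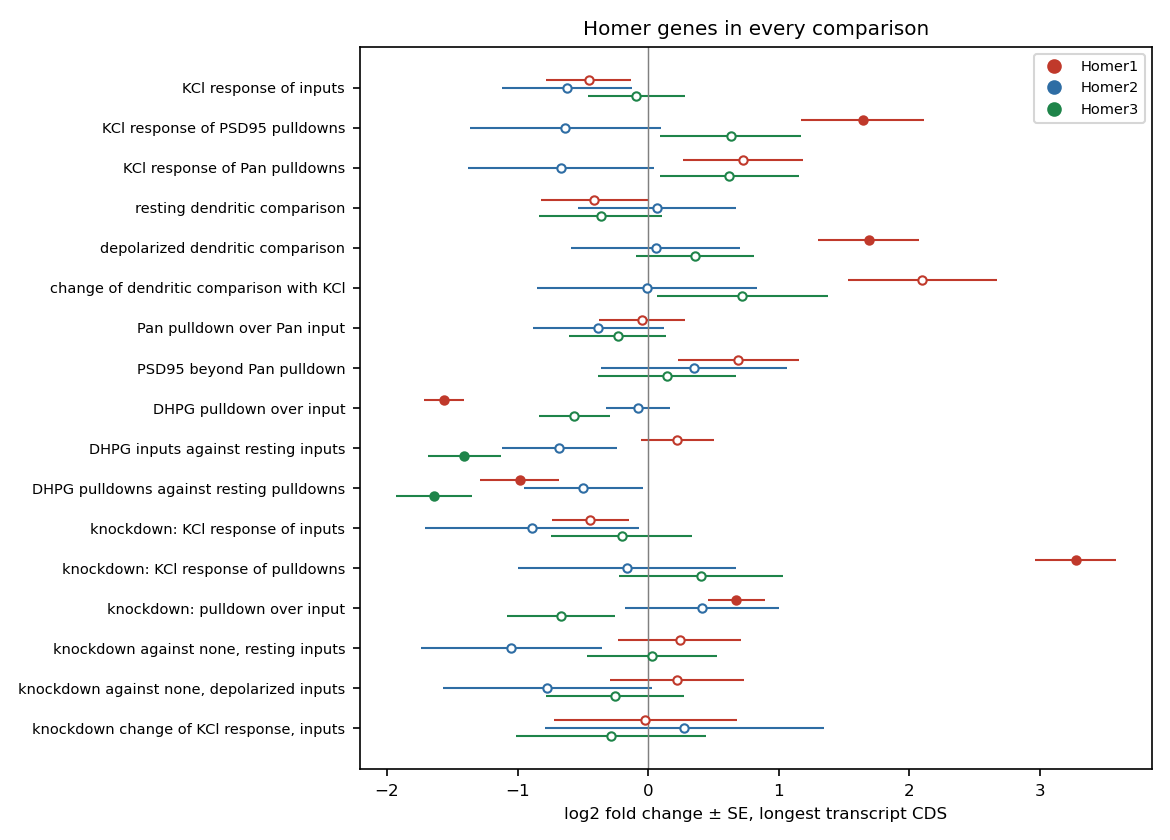
Log2 fold changes of Homer1, Homer2 and Homer3 (longest transcript) in all 17 comparisons of genes, with SE bars; filled points have an adjusted p below 0.05. Homer1 is filled in the KCl and dendritic comparisons of depolarized TurboID-PSD95 pulldowns, in 2 DHPG comparisons and in 2 knockdown comparisons, Homer3 in 2 DHPG comparisons and Homer2 in none.

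Footprints counted on the Homer3 leader were higher in KCl inputs. Reads are placed by their 5′ ends with offset 0, so ribosomes at the start codon can count in the leader stretch beside it. They cannot be told apart from ribosomes further upstream. On the 68 nt next to the start codon (chr8:70285234-70285301), resting TurboID-PSD95 inputs had 26.3, 16.0 and 54.2 CPM per kb and depolarized ones 94.5, 88.1 and 99.1. Pan-TurboID inputs had 38.8, 61.7 and 24.8 CPM per kb at rest and 86.8, 93.5 and 164 after KCl. All 6 depolarized inputs were above all 6 resting ones. The log2 difference was 1.58 (exact permutation p = 0.00216, adjusted p = 0.0195 over 9 comparisons, also added with values known; with swaps within replicate number and ligase, exact p = 0.03125 and adjusted p = 0.281).

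In the fit over all leaders, with 725 counts on this stretch, the rise did not pass. The Homer3 5′ untranslated region changed by 1.36 ± 0.55 in KCl inputs (SE; adjusted p = 0.669) and by 1.68 in TurboID-PSD95 pulldowns (adjusted p = 0.366), and the Homer2 one by 0.17 in inputs (adjusted p = 1). TurboID-PSD95 pulldowns had 25.4, 15.5 and 21.5 CPM per kb at rest and 82.4, 40.2 and 65.3 after KCl, without overlap (log2 difference 1.47, exact permutation p = 0.1, the smallest possible). Pan-TurboID pulldowns overlapped, at 6.78, 6.82 and 18.1 CPM per kb at rest and 0, 28.2 and 25.6 after KCl (log2 difference 0.25, exact permutation p = 0.8). Knockdown inputs had 103 and 72.7 CPM per kb at rest and 162 and 115 after KCl, all above the resting inputs without knockdown. This stretch holds no ATG upstream of the start codon shown above, and the first Homer3 leader exon holds 2, one followed by an in-frame stop after 71 codons and the other by none within the leader.

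The binding partners of Homer proteins were taken as a list of 31 genes, 29 of them tested. In KCl inputs 1 was higher and 4 were lower, where 6.32% of all genes were higher and 9.03% lower, with a median log2 fold change of -0.26 against -0.0077 over all genes. Dlgap3, a scaffold that links PSD95 to Shank proteins, fell at a log2 fold change of -1.66 ± 0.19 (SE; adjusted p = 8.42e-07), the calcium release channel Ryr2 at -1.27 ± 0.22 (adjusted p = 0.000164), and the scaffolds Shank1 and Shank3 at -0.46 and -0.56 (adjusted p = 0.0129 and 0.0275). Cdc42, a small GTPase of the actin cytoskeleton, rose by 0.54 ± 0.15 (adjusted p = 0.0161). The glutamate receptor Grm5 did not pass, at -0.36 (adjusted p = 0.254), nor did Shank2 at 0.20 or the inositol trisphosphate receptor Itpr1 at -0.26 (adjusted p = 0.435 and 0.278).

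In both kinds of pulldown, 3 of the 29 partners tested passed with KCl, all of them lower and Dlgap3 and Ryr2 among them, where 3.28% (TurboID-PSD95) and 3.16% (Pan-TurboID) of all genes were lower. In TurboID-PSD95 pulldowns Dlgap3 and Ryr2 stood at -1.30 and -1.14 (adjusted p = 0.00422 and 0.0191; list median -0.24, all genes 0.031) and in Pan-TurboID pulldowns at -0.97 and -1.07 (adjusted p = 0.0304 and 0.0291). In TurboID-PSD95 pulldowns partners that missed the threshold included Grm5 at -0.62, Shank1 at -0.26, Shank2 at 0.45, Shank3 at 0.42 and Itpr1 at -0.42.

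In TurboID-PSD95 pulldowns against inputs, 11 partners were higher and 1 lower at rest (14.7% and 16.4% of all genes, list median 0.50, all genes -0.040) and 8 were higher and 2 lower after KCl (11.2% and 6.84% of all genes, list median 0.54, all genes -0.013). With the unlocalized ligase, Pan-TurboID pulldowns against their inputs, 8 partners were higher and 2 lower (34.2% of all genes passed in either direction; list median 0.40, all genes -0.024). Between the ligases, TurboID-PSD95 beyond Pan-TurboID, only Dlg4 of the partners passed (0.00768% of all genes, list median 0.15, all genes 0.010). Removing a CDS length trend turned the sign of Homer1 in resting TurboID-PSD95 and in Pan-TurboID pulldowns against inputs. The part of CDS length in the values of the partner list was not tested. After KCl the partners higher in TurboID-PSD95 pulldowns than in inputs included Dlgap1 at 0.90, Shank3 at 0.91 and the calcium release channels Ryr2 at 1.48 and Ryr3 at 1.14 (adjusted p = 0.00346, 0.00539, 0.000934 and 0.00838). Dlg4, at 5.41, encodes PSD95, which the bait also carries, and footprints of the gene and the construct cannot be told apart. With DHPG, where Homer1 and Homer3 were lower in pulldowns, 18 partners were higher and 3 lower in DHPG pulldowns than in resting ones (21.7% and 26.0% of all genes, list median 0.71, all genes -0.089), with Grm5 at 0.99 and Shank1 at 1.00 (adjusted p = 2.47e-07 and 1.14e-05). In DHPG inputs 10 were higher and 3 lower (16.3% and 16.5% of all genes).

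With knockdown, 2 partners were higher and 8 lower in depolarized than in resting pulldowns (28 tested, with 10.2% and 12% of all genes, list median -0.24, all genes 0.00060), and 3 higher and 9 lower in inputs (8.98% and 10.3% of all genes). Shank1 fell at -1.23 ± 0.14 and Shank3 at -1.20 ± 0.16 in the pulldowns (SE; adjusted p = 2.4e-07 and 3.97e-06), in which Homer1 rose. Grm5 was lower after KCl in knockdown inputs at -0.75 and in pulldowns at -0.44 (adjusted p = 1.15e-05 and 0.0044).

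Over the 14 group means, the genes whose level on the log2 scale went most like that of Homer1, among 10891 genes, were Fnbp1l (Pearson r = 0.799), Psmc4, a proteasome subunit (0.748), Nol11 (0.732), Sgsh (0.728) and Fam172a (0.723). Homer2 itself lay below the floor of a mean log2 CPM of 2 that the other genes had to reach. For Homer2 they were N4bp3 (0.925), Kctd8 (0.830), Dclk2 (0.802), Tmeff2 (0.782) and Zkscan8 (0.779), and for Homer3 they included the heat shock protein Hspa2 (0.842), the HSP90 cochaperone Ahsa1 (0.816), Cox18 (0.807) and Prpf38b (0.796). Group means share libraries, depth and experiment between genes, so these values are a description.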

How the data were processed

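The authors aligned footprint reads to mm10 with Rsubread, counted read ends per CDS, 5′ and 3′ untranslated segment with plastid (fiveprime mapping, offset 0, read length 25 to 100) and deposited raw counts per segment and library; strand use and multiple mapping are not given in the sources used here. Ensembl transcripts were matched by identifier without version (66664 of 67238 coding transcripts), with GENCODE M21 annotation.

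Counts of the longest transcript per gene were tested with edgeR 4.0.16 (R 4.3.3; TMM, filterByExpr, robust quasi-likelihood F test, Benjamini-Hochberg over all genes, threshold 0.05). Transcripts, CDS segments, 5′ untranslated regions and leader parts were tested as features over all genes with the gene table's library sizes. Densities per library (log2, pseudocount 0.5) were tested by exact permutation (scipy 1.17.1). Because the longest Homer1 transcript is a short form, long forms were taken from Homer1-201 and Homer1-203. Per the methods, resting and activated samples of one biological replicate were handled together, and inputs were taken from the monosomes used for the pulldown. Replicate numbers were therefore read as pairs, but only in the replicate block and the swaps within replicate number. The main fits and permutation tests did not use the pairs. Among KCl libraries 53 of 84 same-number pairs had deviations correlated above 0.1, against 30 of 168 others. Of these libraries 24 of 24 correlated best with their own number. No same-number pair of the knockdown or DHPG libraries was above 0.1. Members and lists were chosen with earlier results of these data known. Alternatives were the likelihood ratio test, DESeq2 1.42.0, RLE scaling, no filter, the transcript with the most counts, a replicate block, removal of a CDS length trend and each replicate left out. Tested on simulated data, the tests called most of the largest changes, with the right sign, and missed most of the smallest. Total counts set the precision, and intervals for 0 counts (3 counts) cover counting error only. Named were the Homer genes, a preset few of the partners in the KCl comparisons and others that passed, 3 immediate early genes, and per member the 5 genes with the highest Pearson r over group means (mean log2 CPM of at least 2). DHPG inputs and knockdown libraries, which the descriptions also call cytosol, were grouped by the ligase on their labels. Single genes that this rule also names are not reported here.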

Additional observations from a re-analysis of the deposited data

Results flagged for a closer look

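With eIF4G2 knocked down, both depolarized inputs lay below both resting inputs on Homer1 while both depolarized pulldowns lay above both resting pulldowns. The depolarized minus resting mean on Homer1-204 was -5.52 CPM in inputs and 82.0 CPM in pulldowns. On the long form Homer1-203 it was -17.6 CPM in inputs and 75.1 CPM in pulldowns, and on Homer1 exon 4 it was -0.868 CPM in inputs and 43.8 CPM in pulldowns. The difference between inputs and pulldowns was not tested. On Homer1-204 the resting and depolarized knockdown inputs were apart by little. Their change did not pass in the fit over transcripts (log2 fold change -0.44, adjusted p = 0.358).

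Footprints on 3′ untranslated regions entered no comparison of their own. The region of the ania-3 form Homer1-205 (807 nt) is not untranslated in every form. Its first bases are CDS in Homer1-206 and were counted above among the short-form bases. On this region every pulldown was above the inputs of the same condition in 5 conditions. The means were 3.43 CPM in depolarized TurboID-PSD95 pulldowns, 0.903 CPM in depolarized Pan-TurboID pulldowns and 0.501 CPM in DHPG pulldowns. Resting knockdown pulldowns had 2.57 CPM and depolarized knockdown pulldowns 8.43 CPM. Per kb, the depolarized TurboID-PSD95 pulldowns had 3.15, 3.71 and 5.87 CPM and the depolarized knockdown pulldowns 13.6 and 7.33 CPM, while the inputs of all groups lay between 0 and 1.06. In the other 2 conditions, both at rest, all but 1 of the 3 pulldowns were at 0. On the 3′ untranslated region of the long form Homer1-203, all resting Pan-TurboID pulldowns were above their inputs, at a mean of 0.524 CPM from 11 counts in all.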

How the results depend on the processing

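All values here are log2 fold changes or log2 differences. DESeq2, RLE scaling, no expression filter and segments under 50 nt left out kept the direction and side of the threshold of each Homer result they were run on. With the likelihood ratio test that the study used, Homer3 in DHPG pulldowns over inputs passed (-0.57), as did Homer1 distal leader part 2 in TurboID-PSD95 pulldowns (1.97) and part 3 in knockdown pulldowns (1.25). With the replicate block, part 2 in TurboID-PSD95 pulldowns (2.00) and part 3 in Pan-TurboID pulldowns (1.89) passed, and 3 differences near 0 changed sign: Homer1 knockdown against none after KCl (-0.0033), Homer3 knockdown against none at rest (-0.038) and the Homer2 change of the dendritic comparison (0.031). Beside these and the values given with the results (exon 4 and densities), the block changed no other call among the Homer results it was run on. The block moved calls over all genes from 1999 to 2541 in KCl inputs, from 859 to 1271 in TurboID-PSD95 pulldowns and from 655 to 984 in Pan-TurboID pulldowns.

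Counted on the transcript with the most counts, Homer1 stood at -0.96 in KCl inputs and -0.88 in knockdown KCl inputs, both passing, at 0.89 in TurboID-PSD95 pulldowns, no longer passing, and with the sign turned at -0.22 in Pan-TurboID pulldowns, -0.40 in DHPG inputs, -0.48 and -0.20 for knockdown against none at rest and after KCl and 0.28 for the knockdown change of the KCl response. Homer2 turned to -0.24 and -0.21 in the resting and depolarized dendritic comparison, 0.030 in their change and -0.17 in knockdown pulldowns over inputs, and Homer3 in DHPG pulldowns over inputs passed at -0.60. With the CDS length trend removed, Homer1 missed the threshold in TurboID-PSD95 pulldowns (1.58) and DHPG pulldowns (-0.63) and turned to 0.24 in the resting dendritic comparison and 0.55 in Pan-TurboID pulldowns over inputs, and Homer2 turned to 0.043 in the change of the dendritic comparison and 0.37 in DHPG pulldowns over inputs. The cause of these changes was not tested, except that another transcript counts other exons.

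Leaving out 1 replicate at a time, Homer1 ranged from 0.64 to 2.06 in the KCl response of TurboID-PSD95 pulldowns, 1.05 to 2.05 in the depolarized dendritic comparison, -0.15 to 0.077 in Pan-TurboID pulldowns over inputs, -0.028 to 0.65 in DHPG inputs and -1.25 to -0.82 in DHPG pulldowns against rest, 0.47 to 0.83 in knockdown pulldowns over inputs, -0.16 to 0.95 for knockdown against none at rest and -0.74 to 0.34 for the knockdown change. Homer2 ranged from -0.16 to 0.52 and -0.56 to 0.54 in the resting and depolarized dendritic comparison, -0.66 to 0.38 in their change, -0.45 to 1.17 for TurboID-PSD95 beyond Pan-TurboID, -0.27 to 0.064 in DHPG pulldowns over inputs, -1.02 to 0.23 in DHPG inputs, -0.54 to 0.22 in knockdown pulldowns with KCl and -0.64 to 0.83 for the knockdown change. Homer3 ranged from -0.32 to 0.28 in KCl inputs, -0.011 to 0.32 for TurboID-PSD95 beyond Pan-TurboID, -0.48 to 0.015 and -0.29 to 2.97 in knockdown inputs and pulldowns with KCl, -1.97 to -0.33 in knockdown pulldowns over inputs, -0.23 to 0.24 and -0.73 to 0.14 for knockdown against none at rest and after KCl, and -0.97 to 0.37 for the knockdown change.

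On features of Homer1 the ranges were 1.14 to 1.67 and 2.38 to 2.98 for the 5′ untranslated region in KCl inputs and TurboID-PSD95 pulldowns. Homer1-203 ranged from -1.25 to -0.75 in KCl inputs, -0.56 to 0.097 in Pan-TurboID pulldowns, 0.88 to 1.53 in the depolarized dendritic comparison, -1.33 to -0.83 in DHPG pulldowns and -1.13 to -0.62 in knockdown inputs, and exon 4 from -0.37 to 0.84 in KCl inputs. In inputs, TurboID-PSD95 pulldowns and Pan-TurboID pulldowns with KCl, the distal leader parts ranged from 2.22 to 3.45, 2.00 to 3.57 and 2.59 to 3.70 (part 1), 1.69 to 2.31, 1.72 to 2.43 and 1.58 to 2.87 (part 2) and 1.25 to 1.80, 2.49 to 3.44 and 1.77 to 2.11 (part 3, with 1.43 to 1.56 in knockdown inputs). The Homer1 short-only density ranged from -0.16 to 0.92 in KCl inputs, -0.82 to 2.19 in resting TurboID-PSD95 pulldowns against inputs, -2.48 to 0.38 in DHPG pulldowns and -0.13 to 1.77 in knockdown pulldowns, and its ratio to the long-only density from -1.15 to 1.55 in DHPG pulldowns. With KCl in inputs, the densities added later ranged from -1.61 to -1.18 (Homer1 exons 6 to 9), 1.85 to 2.53 (Homer1 distal leader), 1.502 to 1.63 (Homer3 leader), -0.76 to 0.094 (Homer1 proximal leader) and -0.37 to 0.72 (Homer1 exon 4). The first 3 had an adjusted p of 0.2 without any 1 replicate number and 0.281 with swaps within replicate number and ligase (-1.33, 2.16 and 1.58), the smallest those designs allowed for them. In TurboID-PSD95 pulldowns exons 6 to 9 ranged from -0.37 to 0.21 with KCl and, over exons 1 to 3, from -1.18 to 0.38 with KCl and -0.26 to 0.54 against resting inputs. The distal leader ranged from -0.34 to 0.54 in DHPG inputs and -0.46 to 0.57 in DHPG pulldowns, the proximal leader from -2.63 to 1.16 in Pan-TurboID pulldowns with KCl, -1.38 to 0.45 in depolarized TurboID-PSD95 pulldowns against inputs and -0.065 to 0.92 in DHPG pulldowns, and the Homer3 leader from -0.50 to 1.16 in Pan-TurboID pulldowns with KCl. The Homer2 5′ untranslated region ranged from -0.13 to 0.40 in KCl inputs and -0.33 to 0.71 in the change of the dendritic comparison. The leader parts, the densities of single stretches and exons 1 to 3 as the shared part were added after the data had been seen. Short-form CDS ends, Homer2 and the Homer3 leader were limited by their counts, and where a knockdown group was left with 1 library, that library was assumed to vary like the others.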
